A study of Oryza sativa Japonica Group with 9 samples.

Results

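The genes described here are the 85 rice genes, of 55986 in the deposited RNA tables, whose description contains the word homeobox. Homeobox genes encode transcription factors that bind DNA through a homeodomain. They were placed in classes from their description text, by way of the Arabidopsis gene names in it. HD-Zip I had 16 members, HD-Zip II 15, the HD-Zip classes with a lipid-binding START domain (III and IV, which most descriptions do not separate) 19, KNOX 6, BELL 7, WOX 10 and zinc finger homeodomain 11. The remaining member, LOC_Os01g56969, was placed in no class. Symbols such as OsHOX22 are those commonly used for these rice loci, since the tables give none, and genes without one are given by locus.

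HD-Zip proteins carry a leucine zipper next to the homeodomain and bind DNA as dimers. Class I is known for responses to abscisic acid (ABA) and water deficit, and class II for shade and auxin responses. Class III sets leaf polarity and vascular pattern, and class IV acts in the epidermis. KNOX proteins of class I maintain the shoot meristem, those of class II act in differentiated organs, and BELL proteins are their dimer partners. WOX genes act in stem cell niches and in organ founder cells.

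The study examined OsbZIP23, a basic leucine zipper factor of ABA signalling in rice. RNA was sequenced from 6 libraries of above-ground parts of 4-leaf seedlings. The 3 drought libraries came from the OsbZIP23 mutant, the OsbZIP23 overexpressor and wild-type Zhonghua 11 (ZH11), each harvested once all leaves had rolled. The 3 normal libraries came from unstressed seedlings of the same genotypes, collected at the same time. The mutant and the overexpressor are in the ZH11 background and each is a line from an earlier study by the same group, and the promoter of the transgene is not given in the sources used here. Each combination of genotype and stress had 1 library. Differences between the genotypes in their drought change therefore stand in for replicate error. The p-values measure that spread, not the spread between plants. Values below are always listed in the order mutant, overexpressor, ZH11.

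Total reads ran from 9.48 M to 13.5 M per library. Levels are CPM, read numbers scaled to library size, after correction by trimmed means of M-values (TMM), and levels of different genes are compared only as FPKM, which the authors scaled by gene length. OsbZIP23 itself (LOC_Os02g52780) stood at 158, 457 and 479.6 CPM in the drought libraries, against 11.9, 1325 and 32.5 CPM in the normal libraries. It was thus lower in the mutant than in ZH11 in both states and higher in the overexpressor under normal growth. The library labelled overexpressor drought did not exceed ZH11 drought, against its label. Among root markers Lsi2 had no reads, IRT1 stayed at or below 0.918 CPM and Lsi1 ran from 3.72 to 9.91 CPM. Of 4 photosynthetic leaf genes, 3 fell under drought and Rubisco activase did not pass, and the summed level was 2409, 1544 and 1508 CPM in the drought libraries, against 14120, 21840 and 19360 CPM in the normal libraries. All 3 senescence markers rose, with sums of 3154, 1142 and 2447 CPM in the drought libraries, against 354.4, 248.6 and 260.1 CPM in the normal libraries. Of 3 tested cell division genes, 2 rose and 1 fell, with sums between 6.23 and 11.8 CPM in the drought libraries, against sums between 8.70 and 9.64 CPM in the normal libraries. Of 4 panicle and flower genes, OsMADS16 rose, OsMADS14 fell, OsMADS15 had no reads, OsMADS58 stayed at or below 0.140 CPM, and the sums were 27.8, 23.6 and 29.9 CPM in the drought libraries, against 5.55, 10.2 and 17.1 CPM in the normal libraries. The part of these shifts in the results below was not tested. In whole shoots, fewer cells of a type and less RNA per cell cannot be told apart.

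Transcripts were found for 74 of the 85 members, and 11 had no read in any library. A further 10 had fewer than 10 reads over all libraries. The filter on low counts kept 49 members. A gene present in only 1 stress state could pass through that state, so counts over the 49 describe those genes and not all members. Of the members that rose or fell under drought, OsHOX24 and LOC_Os01g57890 passed only through the drought libraries, where they were high. In the same way qSH1, OsHOX20, OsHOX17, LOC_Os08g36220, LOC_Os09g27450, OsHOX33, LOC_Os12g10630 and LOC_Os05g50310 passed only through the normal libraries. Their drought fold changes are given below without a p-value, and the counts of calls include them. Each stress state has 3 libraries, so members were ranked at the filter's edge by the third highest of their 6 library counts. By that count the lowest members that passed were LOC_Os03g03164, LOC_Os08g36220 and LOC_Os06g04870, at 9, 21 and 26 reads. The highest that did not pass were LOC_Os11g13930, LOC_Os09g29130 and LOC_Os10g39720, at 8, 8 and 7 reads.

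**Figure D1:**
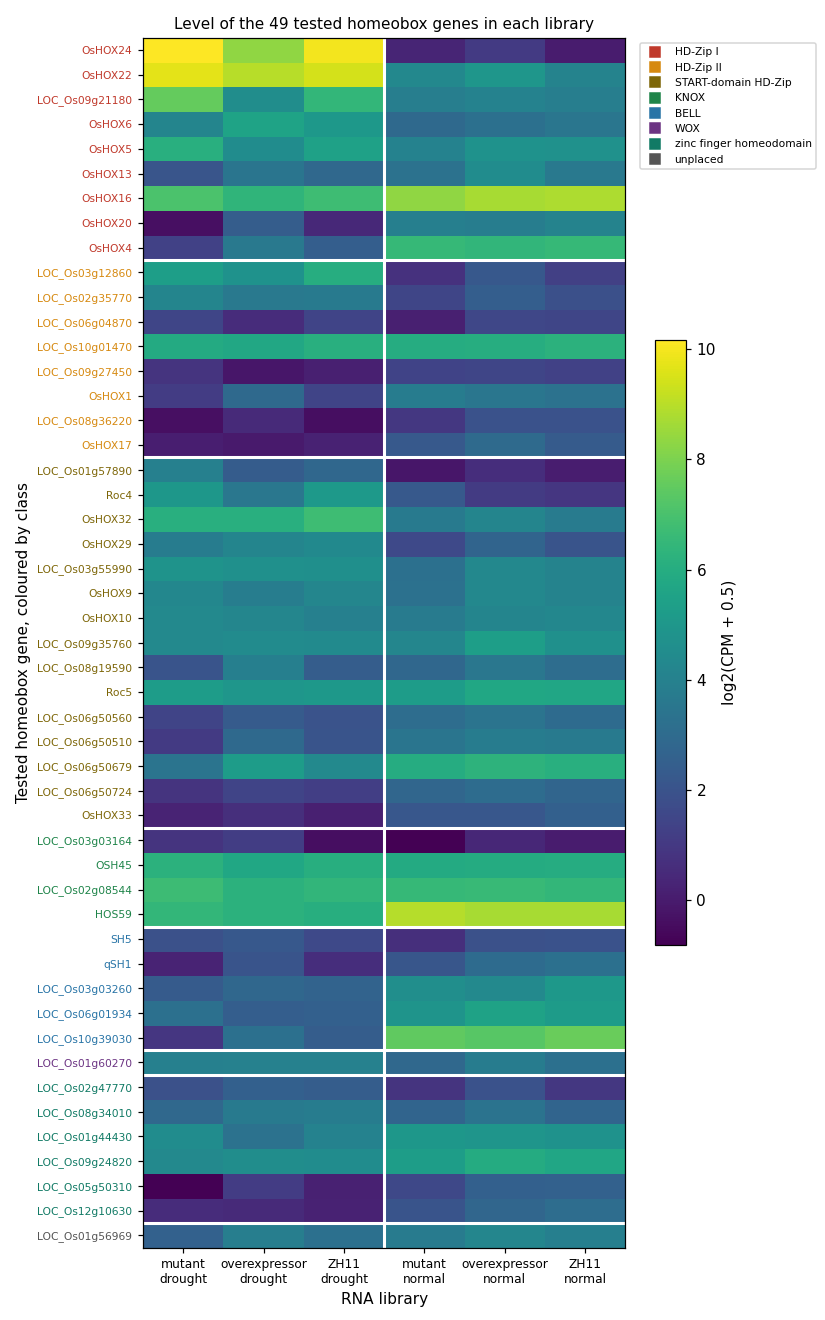
Level of the 49 tested homeobox genes as log2 (CPM + 0.5), 1 row per gene grouped by class and 1 column per library, with the 3 drought libraries left of the 3 normal libraries. Each row is read across libraries and not against other rows: OsHOX24 goes to 326 to 1146 CPM under drought, against 0.514 to 1.57 CPM under normal growth, and HOS59 to 66.6 to 85.9 CPM, against 418 to 491 CPM.

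The first comparison asks how the homeobox genes responded to drought over the 3 genotypes together. More of the tested members fell than rose: 22 fell, 11 rose and 16 did not pass the test. A gene rose or fell where its adjusted p (edgeR quasi-likelihood test, Benjamini-Hochberg over all tested genes) was under 0.05. The members called made up 67.3% of those tested, against 53.6% of all 21409 tested genes. The difference lay in the lower genes, at 44.9% of tested members against 27.5% of all genes. Higher genes made up 22.4% of tested members against 26.1% of all genes. The median log2 fold change was -0.38 for the members and -0.15 for all genes. In 12 members all 3 drought libraries lay above all 3 normal libraries (31% of all tested genes did so), in 22 they lay below (34.6% of all tested genes), and in 15 the groups overlapped. Total count scaling shifted the median of all genes to -0.55 and turned the all-gene split of 5579 higher and 5896 lower into 4024 higher and 7328 lower, while the members became 10 higher and 24 lower. The lower count was the less stable: it was 9 without the ZH11 normal library, where 10.7% of all genes were lower, and 7 without the ZH11 drought library, where 10.2% were. Without the library labelled overexpressor drought, 15 members were higher, where 29.3% of all genes were, and 22 lower, where 32% were.

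**Figure D2:**
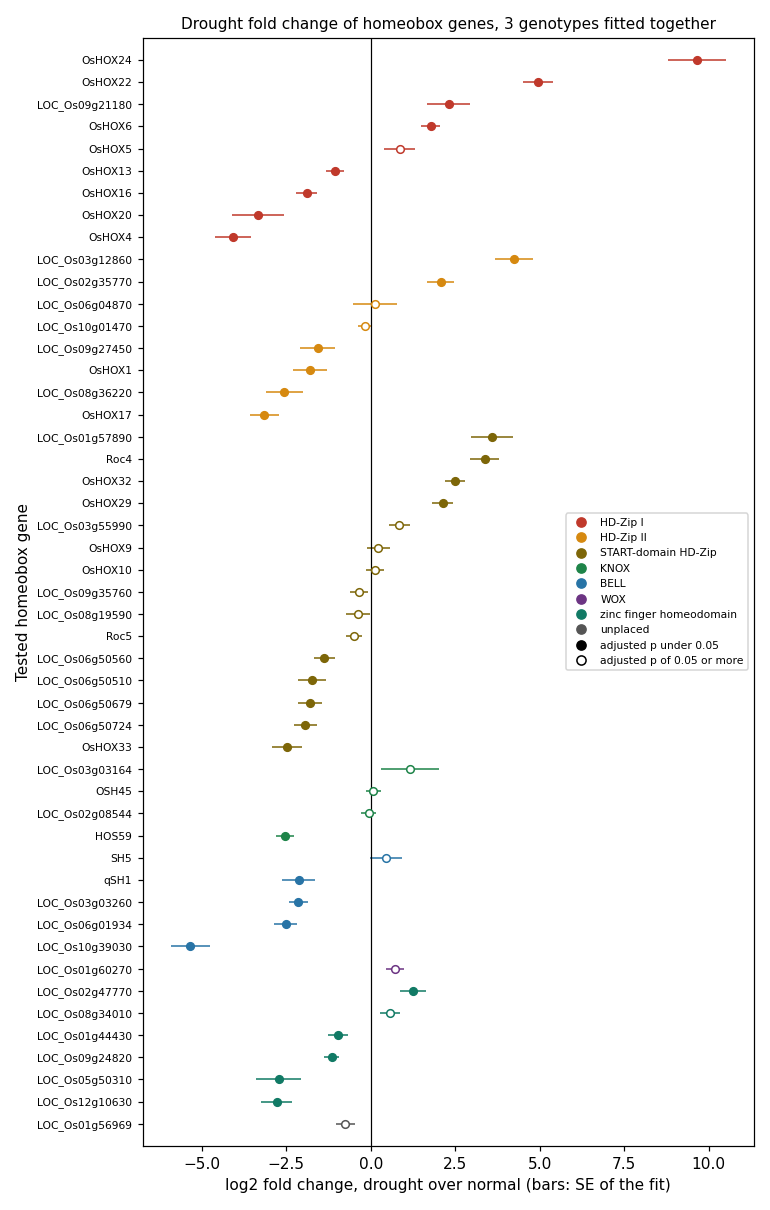
Log2 fold change of drought over normal for the 49 tested homeobox genes, coloured by class, with bars for the SE of the fit and filled symbols for an adjusted p under 0.05. The values run from -5.35 for the BELL gene LOC_Os10g39030 to 9.65 for OsHOX24, and HD-Zip I holds genes at both ends while the BELL genes called all lie below 0.

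HD-Zip I had the widest range, with 4 of 9 tested members higher (26.1% of all tested genes) and 4 lower (27.5% of all tested genes). The rise was led by OsHOX24 (LOC_Os02g43330) and OsHOX22 (LOC_Os04g45810), rice relatives of the Arabidopsis ABA-induced genes ATHB7 and ATHB12. OsHOX24 had 1146, 326 and 1008 CPM in the drought libraries, against 0.749, 1.57 and 0.514 CPM in the normal libraries. The groups were far apart, with the library labelled overexpressor drought the lowest of the drought libraries. Its fitted log2 fold change was 9.65 (SE 0.86), which rests on 7 to 19 reads per normal library. The gene passed the filter only through the drought libraries, so no p-value is given for it. OsHOX22 had 828, 502 and 697 CPM in the drought libraries, against 19.5, 30.9 and 16.4 CPM in the normal libraries. It was therefore already present without stress, and it rose by 4.95 on the log2 scale (SE 0.44, adjusted p = 0.000764).

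OsHOX6, of the same clade as OsHOX22 and OsHOX24, had 17.6, 46.0 and 32.4 CPM in the drought libraries, against 7.08, 8.87 and 10.7 CPM in the normal libraries. It rose 3.41-fold (SE 0.29 on the log2 scale, adjusted p = 0.00423), with the highest level in the library labelled overexpressor drought, the reverse of OsHOX24. LOC_Os09g21180 had 189, 22.9 and 86.8 CPM in the drought libraries, against 14.4, 16.3 and 14.4 CPM in the normal libraries. The 3 normal libraries were close together, while the drought libraries spanned a wide range, and the rise of 2.31 on the log2 scale (SE 0.64) had an adjusted p of 0.0255. Leaving out ZH11 normal or ZH11 drought ended that call (adjusted p = 0.106 and 0.114), and the log2 fold change ran from 1.54 without mutant normal to 3.21 without overexpressor drought. That of OsHOX24 ran from 9.06 without ZH11 normal to 10.76 without overexpressor drought.

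The HD-Zip I genes that fell were OsHOX4, OsHOX20, OsHOX16 and OsHOX13. OsHOX4, studied in rice for stem growth and gibberellin response, had 1.96, 11.9 and 5.05 CPM in the drought libraries, against 92.7, 84.9 and 91.8 CPM in the normal libraries. All drought libraries lay well below all normal ones, and OsHOX4 fell 16.9-fold (log2 fold change -4.08, SE 0.54, adjusted p = 0.00221). OsHOX20 had 0.280, 4.89 and 0.856 CPM in the drought libraries, against 14.7, 13.6 and 16.6 CPM in the normal libraries. It fell 10.2-fold (log2 fold change -3.35, SE 0.77), and the lowest level, in mutant drought, rests on 2 reads. OsHOX16, the most abundant class I gene under normal growth, had 134, 82.8 and 109 CPM in the drought libraries, against 325, 423 and 454 CPM in the normal libraries. It fell 3.73-fold (SE 0.32 on the log2 scale, adjusted p = 0.0046) and the groups did not overlap. OsHOX13 fell 2.09-fold with overlapping groups (adjusted p = 0.0177).

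OsHOX5 had 69.1, 22.6 and 44.1 CPM in the drought libraries, against 16.1, 27.2 and 26.2 CPM in the normal libraries, so that the groups overlapped, and it did not pass (log2 fold change 0.86, adjusted p = 0.16). OsHOX12, known for panicle exsertion, had 33 reads in all and was not tested. Leaving out ZH11 normal ended the calls of OsHOX20 and OsHOX13, and leaving out ZH11 drought those of OsHOX20, OsHOX13 and OsHOX16. OsHOX13 also lost its call without mutant drought (adjusted p = 0.0566). The log2 fold change of OsHOX20 ran from -4.72 without overexpressor normal to -2.61 without mutant drought. That of OsHOX4 ran from -4.76 without overexpressor normal to -3.45 without mutant drought, with the call kept.

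Of 8 tested HD-Zip II genes, 2 rose (26.1% of all tested genes) and 4 fell (27.5% of all tested genes). LOC_Os03g12860 had 39.7, 27.2 and 64.7 CPM in the drought libraries, against 1.19, 4.14 and 1.87 CPM in the normal libraries. It rose 18.8-fold (log2 fold change 4.23, SE 0.56, adjusted p = 0.00221), and the value was 5.09 without overexpressor drought. LOC_Os02g35770 had 17.8, 11.9 and 12.4 CPM in the drought libraries, against 2.25, 4.97 and 3.12 CPM in the normal libraries. That gene rose 4.18-fold (SE 0.40 on the log2 scale, adjusted p = 0.00765), and its adjusted p was 0.0539 without ZH11 drought. In both, every drought library exceeded every normal library.

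Among the class II genes that fell, OsHOX17 had 0.561, 0.494 and 0.684 CPM in the drought libraries, against 4.22, 7.29 and 4.59 CPM in the normal libraries (log2 fold change -3.15, SE 0.44). OsHOX1, known from work on vascular tissue and shoot gravitropism, had 1.68, 7.12 and 2.22 CPM in the drought libraries, against 13.6, 10.6 and 9.36 CPM in the normal libraries. The overexpressor differed least between the states, and the fitted fall was 1.80 on the log2 scale (adjusted p = 0.0266). The call of OsHOX1 was lost without ZH11 normal (adjusted p = 0.126), ZH11 drought (0.136) or mutant normal (0.062), and its log2 fold change was -2.51 without overexpressor normal. LOC_Os08g36220 fell by 2.57 and LOC_Os09g27450 by 1.58 on the log2 scale, and both calls were lost without ZH11 normal. LOC_Os09g27450 also lost its call without ZH11 drought, overexpressor normal or overexpressor drought, and LOC_Os08g36220 without ZH11 drought. The class II gene with the most reads, LOC_Os10g01470, had 58.3, 53.9 and 68.8 CPM in the drought libraries, against 62.8, 65.3 and 74.0 CPM in the normal libraries. Its groups overlapped and it did not pass (log2 fold change -0.16, SE 0.20, adjusted p = 0.523).

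Of 15 tested START-domain HD-Zip genes, 4 rose, 5 fell and 6 did not pass. The shares of 26.7% higher and 33.3% lower were near those of all tested genes, 26.1% and 27.5%. OsHOX32, a class III gene whose higher dosage is known to roll rice leaves, had 68.1, 67.6 and 108 CPM in the drought libraries, against 12.1, 17.5 and 13.1 CPM in the normal libraries. It rose 5.64-fold (SE 0.29 on the log2 scale, adjusted p = 0.00146), with no overlap. OsHOX29, also of class III, had 13.3, 17.7 and 20.6 CPM in the drought libraries, against 2.55, 6.13 and 3.56 CPM in the normal libraries, and rose 4.37-fold (adjusted p = 0.00313). Roc4, a class IV gene known in rice for cuticular wax, had 31.5, 11.0 and 33.2 CPM in the drought libraries, against 4.22, 1.66 and 1.40 CPM in the normal libraries. Roc4 rose 10.4-fold (SE 0.44 on the log2 scale, adjusted p = 0.0021), and the mutant normal library was the highest of its normal libraries. LOC_Os01g57890 had 15.1, 4.65 and 6.67 CPM in the drought libraries, against 0.409, 1.04 and 0.551 CPM in the normal libraries. This gene, which passed the filter only through the drought libraries, rose by 3.58 on the log2 scale (SE 0.62). Its values ran from 2.82 without mutant normal to 4.38 without overexpressor drought.

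The class III genes did not move together. OsHOX33 had 0.701, 1.09 and 0.599 CPM in the drought libraries, against 4.02, 4.02 and 5.40 CPM in the normal libraries. It fell 5.62-fold (SE 0.44 on the log2 scale) and passed the filter only through the normal libraries. OsHOX10 had 20.1, 18.4 and 15.3 CPM in the drought libraries, against 12.8, 17.8 and 18.9 CPM in the normal libraries, and did not pass (adjusted p = 0.716). OsHOX9 had 18.9, 13.8 and 18.2 CPM in the drought libraries, against 9.30, 19.1 and 16.7 CPM in the normal libraries (adjusted p = 0.605). For OsHOX10 and OsHOX9 the groups overlapped. The call of OsHOX33 was lost without ZH11 normal or ZH11 drought.

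The other 4 START-domain genes that fell, LOC_Os06g50510, LOC_Os06g50560, LOC_Os06g50679 and LOC_Os06g50724, have locus numbers close together. LOC_Os06g50679, the one with the most reads, had 10.0, 37.3 and 20.0 CPM in the drought libraries, against 62.8, 76.2 and 69.4 CPM in the normal libraries. It fell 3.49-fold (SE 0.35 on the log2 scale, adjusted p = 0.00737) without overlap, and the mutant was the lowest of the drought libraries. The other 3 fell by 1.38 to 1.95 on the log2 scale. Whether the reads of these loci can be told apart from each other was not tested. Without ZH11 drought the adjusted p of LOC_Os06g50510, LOC_Os06g50560, LOC_Os06g50679 and LOC_Os06g50724 was 0.097, 0.0968, 0.0533 and 0.0504, and without ZH11 normal that of LOC_Os06g50510 and LOC_Os06g50560 was 0.0905 and 0.0917. Roc5, which in rice controls bulliform cells and leaf rolling, had 37.1, 30.9 and 32.4 CPM in the drought libraries, against 38.1, 52.4 and 51.5 CPM in the normal libraries. The groups did not overlap, but the difference of -0.49 on the log2 scale did not pass (SE 0.24, adjusted p = 0.128).

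KNOX and BELL transcripts were mainly lower or level under drought. HOS59 (LOC_Os06g43860), a class II KNOX gene and the most abundant homeobox transcript under normal growth, had 85.9, 76.1 and 66.6 CPM in the drought libraries, against 491, 418 and 425 CPM in the normal libraries. It fell 5.85-fold (log2 fold change -2.55, SE 0.26, adjusted p = 0.00107), by similar amounts in the 3 genotypes. The other class II KNOX genes did not pass. LOC_Os02g08544 had 105, 75.4 and 84.9 CPM in the drought libraries, against 92.1, 96.3 and 87.8 CPM in the normal libraries (log2 fold change -0.07, SE 0.23, adjusted p = 0.813). OSH45 had 74.8, 53.0 and 66.9 CPM in the drought libraries, against 59.7, 60.8 and 62.2 CPM in the normal libraries (log2 fold change 0.08, SE 0.22, adjusted p = 0.782). Both had overlapping groups, and over the alternative settings the log2 fold change ran from -0.47 to 0.12 for LOC_Os02g08544 and from -0.32 to 0.26 for OSH45. Class I KNOX genes of the meristem were nearly absent, with 2 reads in all for OSH71 and none for OSH6. OSH1 and OSH15, described in the tables as KNOTTED-like without the word homeobox and so no members, had at most 0.147 CPM and no reads.

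Of 5 tested BELL genes, 4 fell (27.5% of all tested genes) and none rose (26.1% of all tested genes). Genes described as BEL1-like without the word homeobox are not members and are not counted here. LOC_Os10g39030 had 1.40, 8.80 and 4.88 CPM in the drought libraries, against 179, 158 and 199 CPM in the normal libraries. This was the largest fitted fall of any tested member, 40.7-fold (log2 fold change -5.35, SE 0.58, adjusted p = 0.00122), and the mutant was again the lowest of the drought libraries. Its log2 fold change was -4.70 without mutant drought and -5.98 without overexpressor normal. LOC_Os06g01934 had 8.90, 4.99 and 5.43 CPM in the drought libraries, against 28.7, 44.5 and 36.2 CPM in the normal libraries (log2 fold change -2.52, SE 0.35, adjusted p = 0.00258). LOC_Os03g03260 had 4.49, 6.77 and 5.90 CPM in the drought libraries, against 23.6, 20.2 and 32.7 CPM in the normal libraries (log2 fold change -2.14, SE 0.29, adjusted p = 0.00232). In these 3 genes the groups were well separated. qSH1, known for the abscission layer of the rice grain, had 0.701, 3.56 and 1.03 CPM in the drought libraries, against 3.88, 7.62 and 8.96 CPM in the normal libraries. It fell 4.41-fold, its call was lost without ZH11 normal or ZH11 drought, and the log2 fold change was -2.87 without overexpressor normal. SH5, which acts in the same layer, did not pass (log2 fold change 0.46, adjusted p = 0.442).

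WOX genes had few or no reads in these shoots. Of 10 members 5 had no reads, among them QHB, which marks the quiescent centre of the root, and WOX4, which acts in the meristem. WOX11, a crown root gene, had 10.5 reads in all. The only WOX gene tested, LOC_Os01g60270, had 15.3, 15.4 and 15.4 CPM in the drought libraries, against 6.91, 13.3 and 8.81 CPM in the normal libraries. The drought libraries were nearly equal and all above the normal ones, but the difference did not pass (log2 fold change 0.72, SE 0.28, adjusted p = 0.0729).

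Zinc finger homeodomain genes have a zinc finger before the homeodomain. Of 6 tested members, 4 fell (27.5% of all tested genes) and 1 rose (26.1% of all tested genes). The most abundant in reads, LOC_Os09g24820, had 20.2, 22.9 and 22.8 CPM in the drought libraries, against 38.6, 60.7 and 50.2 CPM in the normal libraries. It fell 2.24-fold (SE 0.22 on the log2 scale, adjusted p = 0.00689). LOC_Os12g10630 had 0.981, 0.890 and 0.684 CPM in the drought libraries, against 3.54, 6.54 and 8.08 CPM in the normal libraries, and fell 6.92-fold. LOC_Os05g50310 fell 6.60-fold, and LOC_Os01g44430 fell 1.95-fold (adjusted p = 0.0349). In all 4 every drought library lay below every normal library, as in 34.6% of all tested genes. LOC_Os02g47770 rose 2.36-fold with overlapping groups (adjusted p = 0.0371).

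Most of these zinc finger calls depended on single libraries. The calls of LOC_Os09g24820, LOC_Os12g10630, LOC_Os05g50310, LOC_Os01g44430 and LOC_Os02g47770 were lost without ZH11 normal. All of these except LOC_Os12g10630 were also lost without ZH11 drought. LOC_Os01g44430 also missed the threshold without overexpressor normal or overexpressor drought, and LOC_Os02g47770 without mutant normal or mutant drought. LOC_Os05g50310 reached a log2 fold change of -3.53 without overexpressor normal, against -2.72 with all libraries. LOC_Os02g47770 did not pass under total count scaling (log2 fold change 0.86, adjusted p = 0.139), nor LOC_Os01g44430 in DESeq2 (adjusted p = 0.0575). LOC_Os09g29130 was not tested, and 51 of its 93 reads were in the mutant drought library. The unplaced LOC_Os01g56969 did not pass (log2 fold change -0.76, adjusted p = 0.0582).

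The make-up of homeobox transcripts turned over under drought. OsHOX22 and OsHOX24 together held 69.0%, 56.5% and 67.9% of the summed homeobox FPKM in the drought libraries, against 1.58%, 2.51% and 1.32% in the normal libraries. HOS59 held 2.44%, 4.16% and 2.67% in the drought libraries, against 38.6%, 25.0% and 25.7% in the normal libraries. Its larger share in mutant normal goes with an FPKM of 472 there, against 287 and 291, while its CPM were 491, 418 and 425. The cause of this gap was not tested. The BELL class held 0.363%, 0.979% and 0.419% in the drought libraries, against 8.96%, 8.90% and 10.6% in the normal libraries. It leaves out the genes described as BEL1-like homeodomain without the word homeobox, which did not all fall and are given under the other observations. None of these shares overlapped between the states. The sum itself was 1637, 1145 and 1652 FPKM in the drought libraries, against 1224, 1147 and 1131 FPKM in the normal libraries, and overlapped only through the library labelled overexpressor drought. Ranked by FPKM, OsHOX24 came first in mutant drought (633.5 FPKM) and ZH11 drought (641 FPKM). OsHOX22 came first in the library labelled overexpressor drought (405 FPKM, against 242 FPKM for OsHOX24). HOS59 led in the 3 normal libraries, at 472, 287 and 291 FPKM, followed in each by OsHOX16 at 187, 226.5 and 242 FPKM. These orders describe 1 library each.

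**Figure D3:**
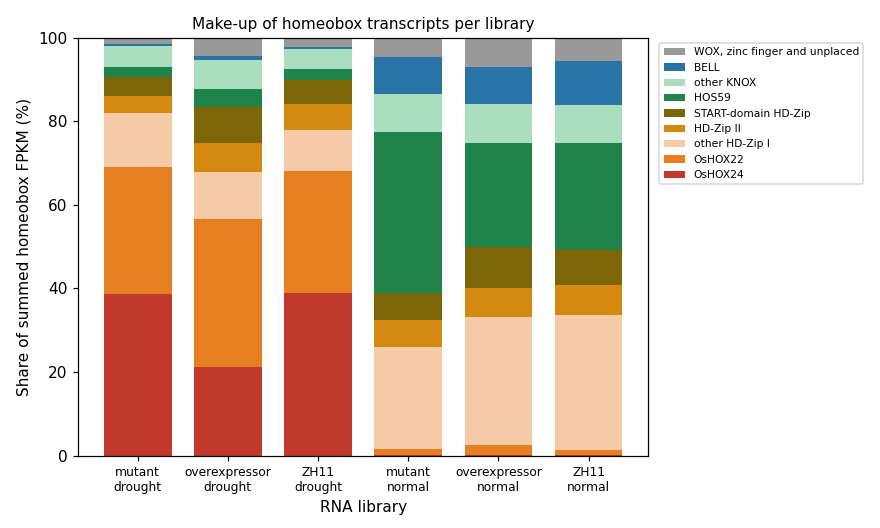
Share of summed homeobox FPKM (%) held by classes and by 3 leading genes in each library, with the 3 drought libraries left of the 3 normal libraries. OsHOX24 and OsHOX22 fill 56.5% to 69.0% of each drought bar and 1.32% to 2.51% of each normal bar, while HOS59 fills 2.44% to 4.16% and 25.0% to 38.6%.

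The second question is whether the genotypes differed in homeobox transcripts, with stress taken into account. No tested member passed for mutant against ZH11 or for overexpressor against ZH11 in edgeR, and none passed in DESeq2. Among all genes edgeR called 0.014% for the mutant and 0.0187% for the overexpressor. At an unadjusted p under 0.05 the edgeR counts were 0 of 49 members for the mutant, with 3.64% of all genes, and 1 of 49 for the overexpressor, with 5.16% of all genes. That 1 gene was LOC_Os08g19590, a START-domain gene. It had 14.8 and 11.2 CPM in the overexpressor under drought and normal growth, against 4.79 and 8.08 CPM in ZH11, with a fitted log2 fold change of 1.08 (unadjusted p = 0.0461). Without the overexpressor normal library, LOC_Os09g21180 was called lower (log2 fold change -2.21, adjusted p = 0.0475) and OsHOX20 higher (2.84, adjusted p = 0.0485) in the overexpressor. Both genotype comparisons use the same ZH11 libraries. OsbZIP23 itself did not pass in either comparison (log2 fold change -1.56 for the mutant and 3.53 for the overexpressor). The overexpressor term joins a normal library with OsbZIP23 above ZH11 and a drought library where it was not. A missing call here therefore does not show that the genotypes were alike.

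Single libraries were set against each other next, as ratios of CPM with exact 95% intervals that cover counting error only. No test of the conditions is possible for these. A member was counted where the ratio of CPM + 0.5 was at least 2-fold, among genes that had 10 reads or more in 1 of the libraries compared. For mutant drought against ZH11 drought, 4 of 44 members were higher (5.98% of all genes) and 3 lower (6% of all genes). OsHOX24 and OsHOX22 differed little, with ratios of 1.14 (1.11–1.17) and 1.19 (1.15–1.23). LOC_Os09g21180 had 189 CPM in mutant drought, against 86.8 CPM in ZH11 drought, a ratio of 2.18 (2.01–2.37). The ratio was 2.26 (1.68–3.08) for LOC_Os01g57890, 4.40 (2.55–7.89) for LOC_Os09g29130 and 3.28 (1.40–8.28) for OsHOX12, the last on 18 and 9 reads. The lower members were LOC_Os10g39030 at 0.287 (0.131–0.568), OsHOX4 at 0.389 (0.201–0.705) and LOC_Os06g50510 at 0.429 (0.199–0.848). LOC_Os06g50679, next in order, had a ratio of 0.501 (0.382–0.659). Total count scaling left 2 members higher and 6 lower.

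For the library labelled overexpressor drought against ZH11 drought, 7 of 47 members were higher (11.2% of all genes) and 4 lower (8.54% of all genes). The drought fit uses both of these libraries, so its calls and these ratios are not independent. OsHOX24 had 326 CPM in the library labelled overexpressor drought, against 1008 CPM in ZH11 drought, a ratio of 0.324 (0.311–0.337). LOC_Os09g21180 had a ratio of 0.264 (0.228–0.305), Roc4 of 0.330 (0.265–0.409) and LOC_Os03g12860 of 0.420 (0.365–0.483). OsHOX22 moved less, at 0.720 (0.696–0.746). The higher members included OsHOX20 at 5.72 (2.90–12.8), qSH1 at 3.47 (1.76–7.32), OsHOX1 at 3.20 (2.02–5.22) and OsHOX4 at 2.36 (1.71–3.27). The others were LOC_Os08g19590 at 3.10 (2.26–4.29), LOC_Os03g03164 at 6.74 (2.02–36.8) and LOC_Os04g35500 at 4.10 (1.49–11.7), the last pair on fewer than 20 reads per library. With at least 50 reads required, 3 members were higher. OsbZIP23 did not exceed ZH11 in this library, so these ratios are not those of plants with more OsbZIP23 transcript. The senescence markers also differed there, with sums of 1142 CPM in the library labelled overexpressor drought, against 2447 CPM in ZH11 drought, and their part in these ratios was not tested.

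**Figure D4:**
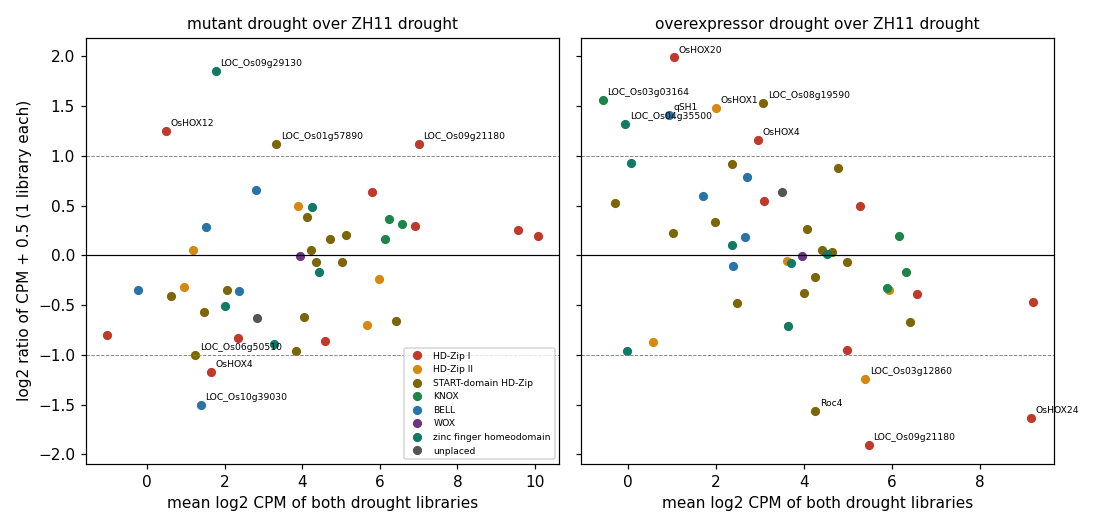
Log2 ratio of CPM + 0.5 under drought, mutant over ZH11 in the left panel and overexpressor over ZH11 in the right panel, against the mean log2 CPM of both libraries. Each point is a homeobox gene with 10 reads or more in 1 of the libraries compared, dashed lines mark 2-fold, and OsHOX24 lies near 0 in the left panel (0.19) and at -1.63 in the right panel.

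The same ratios were taken under normal growth. For mutant normal against ZH11 normal, 1 of 50 members was higher (3.44% of all genes) and 6 were lower (4.06% of all genes). Roc4 had 4.22 CPM in mutant normal, against 1.40 CPM in ZH11 normal, a ratio of 3.03 (1.79–5.36). The lower members were qSH1 at 0.433 (0.311–0.598), SH5 at 0.323 (0.171–0.581), LOC_Os12g10630 at 0.438 (0.309–0.615), LOC_Os05g50310 at 0.439 (0.291–0.671), LOC_Os06g04870 at 0.269 (0.113–0.579) and LOC_Os08g36220 at 0.423 (0.240–0.724). The value of SH5 rests on 16 reads in mutant normal and 46 in ZH11 normal, and all 6 were below 10 CPM in ZH11 normal. For mutant drought against ZH11 drought the ratio was 0.683 (0.188–2.08) for qSH1 and 1.26 (0.697–2.24) for SH5. OsHOX1 had a ratio of 1.45 (1.15–1.81) and OsHOX22 of 1.19 (0.991–1.42). The 6 became 3 under total count scaling, and 3 with at least 50 reads required.

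For overexpressor normal against ZH11 normal, 2 of 51 members were higher (2.32% of all genes) and 0 lower (3.83% of all genes). OsbZIP23 was far above ZH11 in this library, at 1325 CPM in overexpressor normal against 32.5 CPM in ZH11 normal. OsHOX24 had a ratio of 3.06 (1.23–8.62), on 19 reads in overexpressor normal and 7 in ZH11 normal, and LOC_Os02g47770 one of 2.37 (1.32–4.17). Neither was counted with at least 50 reads required. OsHOX22 had 30.9 CPM in overexpressor normal, against 16.4 CPM in ZH11 normal, a ratio of 1.88 (1.58–2.22). The ratio was 2.21 (1.32–3.63) for LOC_Os03g12860, which fell short of the 2-fold rule once 0.5 CPM was added, and 1.86 (1.52–2.27) for OsHOX13. At the low end LOC_Os03g03260 had 0.619 (0.527–0.725), OsHOX33 0.744 (0.498–1.07) and LOC_Os10g39030 0.793 (0.748–0.842).

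The drought response was then read within each genotype. In mutant drought against mutant normal, 18 of 52 members were at least 2-fold higher (26.5% of all genes) and 22 lower (32.8% of all genes). In the overexpressor, 10 of 51 were higher (20% of all genes) and 20 lower (20.5% of all genes). In ZH11, 12 of 51 were higher (25% of all genes) and 22 lower (29.6% of all genes). The 33 members called in the fit had the same sign in all 3 genotypes, as did 11349 of all 11350 called genes with a ratio in each genotype. The fit used these same libraries and calls a drought change shared by the genotypes, so equal signs follow from the selection. The median absolute log2 ratio of the 33 members was 2.27 in the mutant, 1.59 in the overexpressor and 2.38 in ZH11. For all called genes it was 1.96, 1.35 and 1.87. The ratio was smaller in the overexpressor than in ZH11 for 23 of the 33 members (69.7%), and for 81.6% of all called genes. A smaller ratio in the overexpressor was thus common to the called genes at large.

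Individual genes differed more. OsHOX24 differed between the states by 1530-fold (855–3066) in the mutant, 207-fold (133–345) in the overexpressor and 1961-fold (951–4877) in ZH11. OsHOX22 stood at 42.5-fold (37.7–48.0) in the mutant, 16.3-fold (14.7–18.2) in the overexpressor and 42.5-fold (37.1–48.6) in ZH11. LOC_Os09g21180 ranged widely, from 13.2-fold (11.4–15.3) in the mutant to 1.40-fold (1.16–1.71) in the overexpressor, with 6.03-fold (5.17–7.06) in ZH11. OsHOX6 had its highest ratio in the overexpressor, 5.19-fold (4.19–6.46), against 3.04-fold (2.51–3.71) in ZH11. HOS59 was nearly even, at 0.175 (0.161–0.190) in the mutant, 0.182 (0.169–0.197) in the overexpressor and 0.157 (0.145–0.169) in ZH11. The difference of drought log2 ratios between genotypes had a median over members of 0.13 for mutant minus ZH11 (50 members) and -0.27 for overexpressor minus ZH11 (49 members), beside -0.02 and 0.06 over all genes. For the mutant it was -1 or lower in 3 members (7.26% of all genes) and 1 or higher in 9 (8.41% of all genes). For the overexpressor it was -1 or lower in 7 (8.36% of all genes) and 1 or higher in 6 (12.6% of all genes).

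**Figure D5:**
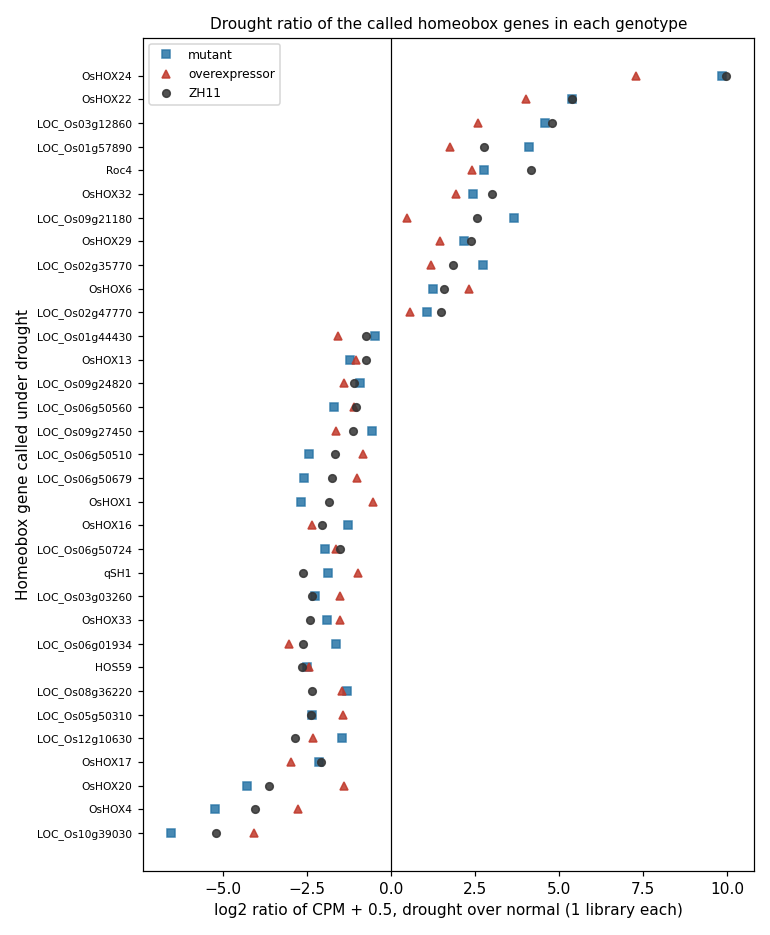
Log2 ratio of CPM + 0.5, drought over normal, within each genotype for the 33 homeobox genes called in the fit, 1 library per point. Squares (mutant), triangles (overexpressor) and circles (ZH11) lie on the same side of 0 for every gene shown, as they do for 11349 of 11350 called genes. Equal signs follow from the selection by a fit of the same libraries. OsHOX24 spans 7.30 in the overexpressor to 9.96 in ZH11.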

How the data were processed

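The authors' deposited RNA tables give, per the file headers, a read number per gene, handled here with the unit expected counts, and FPKM. Per the submitters' processing notes, the RNA tools included TopHat2 2.0.8, Trimmomatic 0.32 and edgeR 3.6.0. The role of edgeR, the genome build and the gene annotation are not given in the sources used here. Read numbers came in steps of 0.5 (13.9% to 16.8% of lines ended in 0.5) and were rounded for the models. After 15 repeated names were summed, 56001 lines gave 55986 genes. Genes were tested with edgeR 4.0.16 (R 4.3.3): TMM factors, filterByExpr by stress (21409 genes), additive terms for genotype and stress over 6 libraries, quasi-likelihood test, 2-sided, Benjamini-Hochberg over all tested genes, threshold 0.05. Degrees of freedom were 2 (residual) and 4.02 (prior), with a common dispersion of 0.0954. The SE is the absolute log2 fold change over the square root of F. DESeq2 1.42.0 and limma 3.58.1 (on log2 of the authors' FPKM + 0.1) served as alternatives, as did other scalings, filters and each library left out. Ratios of single libraries carry Clopper-Pearson 95% intervals. They hold counting error alone, as reads are not independent molecules.

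The members, class lists, marker lists and naming rule were chosen with earlier results of these data known. The genes named are a list of known rice homeobox genes, up to 12 of the largest called changes each way (11 were higher), the 3 extreme members each way of each genotype ratio, the most abundant member of each class and those at the filter's edge. Others were added after their values were seen: OsHOX16, OsHOX5, OsHOX12, Roc5, OSH45, LOC_Os02g08544, OSH71, OSH6, SH5, WOX4, LOC_Os06g50510, LOC_Os06g50560, LOC_Os06g50724, LOC_Os09g27450, LOC_Os01g44430 and LOC_Os04g35500. The ChIP peaks were not analysed here, since no annotation of their build was at hand. The scripts were tested on simulated data.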

Additional observations from a re-analysis of the deposited data

Results flagged for a closer look

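For 7 tested members that did not pass for drought, single-library drought ratios of TMM-scaled CPM went opposite ways in different genotypes. The difference between genotypes was not tested, since each ratio rests on 1 library against 1 library. In each of the 7, 1 genotype had an interval wholly above 1 and another an interval wholly below 1. How many of all genes meet this rule was not counted, so the 7 cannot be set against a share of all genes. OsHOX5 had a drought to normal ratio of 4.30 (95% interval 3.67–5.04) in the mutant, 0.833 (0.701–0.989) in the overexpressor and 1.68 (1.47–1.93) in ZH11. OsHOX9 had 2.03 (1.59–2.59) in the mutant, 0.723 (0.582–0.896) in the overexpressor and 1.09 (0.899–1.32) in ZH11. LOC_Os06g04870 had 3.77 (1.52–9.39) in the mutant, 0.411 (0.179–0.869) in the overexpressor and 0.977 (0.557–1.70) in ZH11, on 9 to 31 reads per library. LOC_Os08g19590 had 0.541 (0.337–0.840) in the mutant, 1.33 (1.04–1.69) in the overexpressor and 0.593 (0.422–0.825) in ZH11. OsHOX10 had 1.56 (1.25–1.96) in the mutant, 1.03 (0.844–1.26) in the overexpressor and 0.809 (0.663–0.981) in ZH11. The class II KNOX genes showed small ratios, 1.25 (1.12–1.40), 0.873 (0.778–0.975) and 1.07 (0.975–1.19) for OSH45 and 1.14 (1.05–1.25), 0.783 (0.713–0.858) and 0.966 (0.887–1.05) for LOC_Os02g08544, each in mutant, overexpressor and ZH11. In the authors' FPKM, OSH45 had 32.8 in mutant drought against 41.7 in mutant normal, and LOC_Os02g08544 49.4 against 69.0. OsHOX10 had 4.33 against 4.45 FPKM. By FPKM these genes were lower under drought in every genotype. Opposite directions remained by FPKM for OsHOX5, OsHOX9, LOC_Os06g04870 and LOC_Os08g19590.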

How the results depend on the processing

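All 33 called members kept their sign in 13 alternatives to the drought fit. Of them 29 passed in every alternative that kept all libraries, and 14 passed in all 13, and 5 of the 16 not called passed in at least 1. Leaving out each library in turn gave 8 to 15 higher and 7 to 22 lower members. The lowest counts came without a ZH11 library, and the cause was not tested. In these fits the genotype left with 1 library is assumed to vary like the others. DESeq2 gave 12 higher and 20 lower, and limma on FPKM gave 10 and 24. The genotype counts stayed at 0 except without overexpressor normal, where the overexpressor had 1 higher and 1 lower (range 0 to 1). With total count scaling, 3 members were at least 2-fold lower for mutant against ZH11 under normal growth, and 2 were higher and 6 lower under drought. With at least 50 reads required, 3 were lower for mutant against ZH11 under normal growth, 0 higher for overexpressor against ZH11 under normal growth and 3 higher under drought. Of the 16 members not called, 6 changed sign in some alternative: OSH45, LOC_Os02g08544, OsHOX10, OsHOX9, SH5 and LOC_Os06g04870. The labels give no replicate numbers, but the genotype term of the fit paired the drought and normal library of each genotype. Without that block 10 members were higher and 20 lower. Other distances and score limits for OsbZIP23 peaks near homeobox genes were not run. Depth left 36 members too low to test.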

Other observations

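Genes named for a homeodomain or for OVATE, a family of proteins known in Arabidopsis to bind KNOX and BELL proteins, were read from lists chosen with earlier results known. Of 12 genes described by the word homeodomain, 9 were tested. Of these, 3 fell under drought (27.5% of all tested genes) and none rose (26.1% of all tested genes). The median log2 fold change was -0.07, beside -0.15 for all genes. The 3 that fell are described as BEL1-like. LOC_Os03g52239 had 12.7, 37.8 and 18.0 CPM in the drought libraries, against 125, 173 and 141 CPM in the normal libraries (log2 fold change -2.82, SE 0.30, adjusted p = 0.0012). LOC_Os11g06020 fell by 2.41 (adjusted p = 0.00103) and LOC_Os03g06930 by 1.56 (adjusted p = 0.00342) on the log2 scale. The BEL1-like gene with the most reads, LOC_Os03g47740, had 347, 194 and 256 CPM in the drought libraries, against 156, 192 and 174 CPM in the normal libraries, and did not pass (adjusted p = 0.159).

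Of 33 OVATE genes, 7 passed the filter on low counts. A gene with few normal reads passed only through the drought libraries, where it was high, so no count of changes is given for the list. LOC_Os05g39950 had 6.73, 4.05 and 11.1 CPM in the drought libraries, against 0.0681, 0 and 0 CPM in the normal libraries. LOC_Os03g10150 had 4.84, 2.57 and 5.90 CPM in the drought libraries, against 0.136, 0.290 and 0.0734 CPM in the normal libraries. LOC_Os03g06350 had 6.73, 5.09 and 5.43 CPM in the drought libraries, against 0.715, 1.49 and 1.25 CPM in the normal libraries. LOC_Os04g48830 had 4.49, 2.67 and 1.84 CPM in the drought libraries, against 1.29, 1.57 and 0.514 CPM in the normal libraries. All of these genes passed the filter only through the drought libraries, so no test result is given for them. Also tested, LOC_Os11g05780, LOC_Os01g53160 and LOC_Os01g43610 did not pass (log2 fold change 0.56, 1.31 and -0.52).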
